A study of Mus musculus with 4 samples.

Results

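The genes described are the 3 transforming growth factor beta (TGF-beta) ligands, Tgfb1, Tgfb2 and Tgfb3, and the 4 latent TGF-beta binding proteins, Ltbp1, Ltbp2, Ltbp3 and Ltbp4, in differentiating C2C12 mouse muscle cells with and without follistatin. All non-control probes of the array with these gene names were taken, whatever their values, but the genes themselves were chosen with earlier results of these data known. These 7 of 27398 gene names were carried by 9 of 41174 probes, since Ltbp1 and Ltbp3 had 2 probes each. On each array all 9 stood well above background in the treated and in the untreated channel, and they were among the 27017 probes tested.

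TGF-beta is made as a precursor that is cut into a growth factor dimer and a propeptide, the latency-associated peptide, which stays wrapped around the growth factor and keeps it from its receptors. In many cells the propeptide is joined by disulfide bonds to a latent TGF-beta binding protein, and the large latent complex is then laid down on fibrillin microfibrils and fibronectin until integrins, proteases or thrombospondin release the ligand. Released ligand binds the type II receptor Tgfbr2, which recruits the type I receptor Tgfbr1 and leads to phosphorylation of Smad2 and Smad3. In muscle, TGF-beta is known to hold back myoblast differentiation and to promote fibrosis. Follistatin is best known for binding activins and myostatin, relatives of TGF-beta that also signal through Smad2 and Smad3.

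C2C12 is an established line of mouse myoblasts that fuse into myotubes when serum is reduced. Cells were expanded in DMEM with 10% FBS to 80% confluence and then differentiated for 6 days in horse serum, for which the growth protocol states 2% and the source names state 10%. Treated cultures received Recombinant Human Follistatin 288 at 200 ng/ml every 24 h, and control cultures, kept in the same differentiation medium, received none. Each of 4 replicates was 1 two-colour Agilent array that carried the treated culture in Cy3 and its untreated control in Cy5, and the labels call them biological replicates. The labels also call the arrays dye swaps, but all 4 have the same orientation, so a dye effect particular to a probe adds to its ratio. All cultures came from 1 cell line, and where cultures were not separate the p-values measure only the spread between these arrays. In whole cultures, fewer cells of a type and less RNA per cell cannot be told apart.

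Replicates 1, 2 and 3 were on 1 slide and replicate 4 was on another. Over probes, which do not count as replicates, r between replicates 2 and 3 was 0.817, and it was 0.038 to 0.318 for the other 5 pairs of arrays, so replicates 2 and 3 resembled each other far more than the rest. In the follistatin channel 61.1% to 65.2% of spots were well above background, and in the untreated channel 61.4% to 69.4%. All 10 skeletal muscle markers were measured, while Pecam1, Cdh5 and Kdr of the 4 endothelial markers, Ptprc and Emr1 of the 4 blood markers and all 3 adipocyte markers did not reach the detection rule. Of 5 fibroblast markers, 3 were measured (Pdgfra, Dpt and Lum), with median log2 ratios of 0.44, 0.45, 0.29 and 1.62 on replicates 1 to 4. The summed signal of all 5 fibroblast markers, those below the detection rule included, was 6326, 9296, 4315 and 6645 with follistatin on replicates 1 to 4. Without follistatin it was 4725, 6770, 6309 and 2165, so it was higher in treated cultures on replicates 1, 2 and 4 and lower on replicate 3. The sum and the median thus cover different sets of genes. The skeletal muscle markers had median log2 ratios of 0.63, -0.36, -0.49 and -0.52, with summed signals of 864669 to 1332535 with follistatin and 1325703 to 1628907 without. Their part in the ratios of the ligands and binding proteins was not tested.

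The comparison asked how the transcripts of these ligands and binding proteins differed between treated and untreated cultures. No member passed the test, which does not show that the members were unchanged. In the fit of all probes with limma, the adjusted p of the 9 probes lay between 0.169 and 0.689, and 2 of 27017 probes on the whole array (0.00740%) were called, Olfr1299 and Ces3b, both lower, and none when any 1 replicate was left out. By mean log2 ratio (treated over untreated), Tgfb2 was the lowest member at -0.71, Tgfb3 lay at -0.12, and Tgfb1 and the 6 binding protein probes lay between 0.22 and 0.63. At an unadjusted p under 0.05 there were 3 member probes with a higher signal in treated cells, of Ltbp2, Ltbp3 and Ltbp4, against 9.93% of all tested probes, and 1 with a lower signal, of Tgfb2, against 10.8%. The number of member probes at that level, in either direction, was 4. Without replicate 1 it was 1 (Ltbp2), without replicate 2 it was 1 (Ltbp4) and without replicate 3 it was 0. Without replicate 4 it was 3 (Ltbp1, Ltbp2 and Tgfb2, of which Ltbp1 was not among the 4), and with replicates 2 and 3 averaged it was 2 (Ltbp3 and Ltbp4). Over all 27017 tested probes the count was 5605 as reported, and 5423, 3169, 2574 and 7656 without replicates 1 to 4 in turn. With replicates 2 and 3 averaged it was 3073, so the count over the whole array moved with the setting too. Only Ltbp2 and 1 of the 2 Ltbp3 probes had a ratio above 0 on all 4 arrays, against 13.7% of tested probes, and the same 2 had channels that did not overlap over the arrays, against 6.69%. No member was below 0 on all 4 arrays, against 14.5%, or had its treated channel wholly below the untreated one, against 6.76%.

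**Figure D1:**
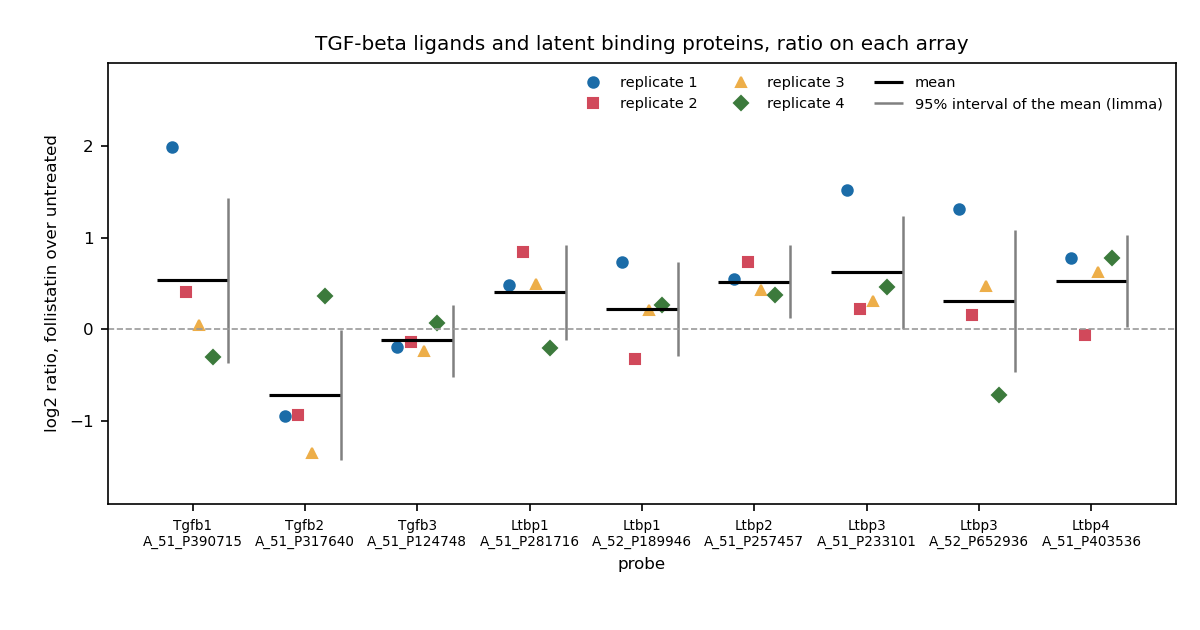
Log2 ratio of treated over untreated signal (y axis) on each of the 4 arrays for the 9 member probes (x axis). Coloured points are the replicates, black bars their mean and grey lines the 95% interval of the mean from limma; the Ltbp2 points lie closely together at 0.37 to 0.73, while the Tgfb1 points run from -0.3 to 1.99.

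Tgfb1 encodes the ligand that is best known in muscle repair and fibrosis. Its single probe, A_51_P390715, lies on chromosome 7 at chr7:26489877-26489936 on the plus strand (mm9). The probe is shown because it was printed 10 times on each array and so gives the ratio with a measured spotting error. All of its 60 bases are given, and they read without a stop codon in 2 of the 3 forward frames.
Tgfb1 A_51_P390715: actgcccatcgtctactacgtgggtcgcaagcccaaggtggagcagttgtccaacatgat
The treated channel had signals of 493, 602, 480 and 445 on replicates 1 to 4. The untreated channel had 124, 453, 465 and 548. The treated signals were thus within 1.35-fold of each other and the untreated ones spread over 4.41-fold, with replicate 1 far below the other untreated cultures. The log2 ratios were 1.99, 0.41, 0.05 and -0.3, with a mean of 0.54 ± 1.0 (SD, n = 4) and a 95% interval of -0.36 to 1.43. In limma the adjusted p was 0.438. Without replicate 1 the mean was 0.05, and with normexp background correction and loess normalization of all 4 arrays it was 0.27.

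The 10 spots separated printing error from the difference between arrays. On replicate 1 they lay between 1.8 and 2.21 (SD 0.12), and on replicate 2 between 0.29 and 0.58 (SD 0.1). The spots of replicate 3 lay between 0.01 and 0.1 (SD 0.033), and those of replicate 4 between -0.37 and -0.14 (SD 0.069). No spot range overlapped that of another array. All 10 spots were positive on each of replicates 1 to 3 and all 10 were negative on replicate 4. Spots of 1 array share 1 pair of RNA samples and are not replicates of the treatment.

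**Figure D2:**
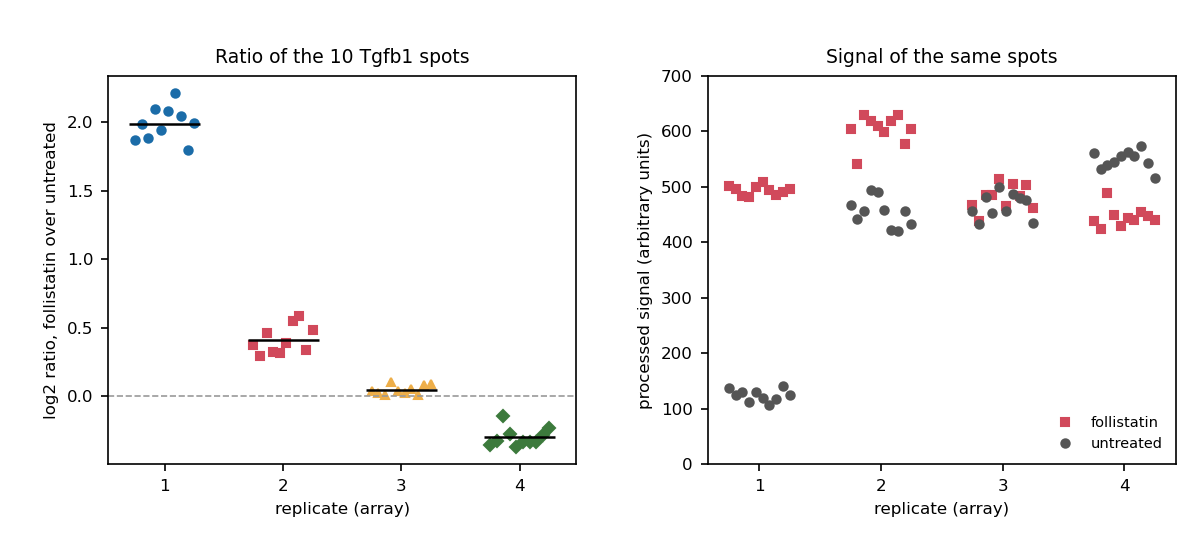
The 10 spots of the Tgfb1 probe on each array (x axis, replicate), as log2 ratio of treated over untreated signal with the mean as a black line (left) and as processed signal in arbitrary units of each channel (right). The untreated spots of replicate 1 lie near 124 while the treated spots of all arrays lie between about 445 and 602 on average.

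Tgfb2 encodes the second ligand, whose propeptide lacks the integrin-binding motif found in the other ligands. The probe A_51_P317640 lies on chromosome 1 at chr1:188447534-188447593 on the minus strand (mm9). Treated signals were 1194, 935, 613 and 2112, and untreated signals were 2285, 1779, 1560 and 1646. The untreated cultures were alike, within a range of 1560 to 2285, and the treated ones were below all of them on replicates 1, 2 and 3 and inside their range on replicate 4. Log2 ratios were -0.94, -0.93, -1.35 and 0.36, with a mean of -0.71 ± 0.74 (SD, n = 4), a fold of 0.61 and a 95% interval of -1.42 to -0.01. The unadjusted p was 0.0485 and limma's adjusted p was 0.239. Without replicate 4, the array on the second slide, the mean was -1.07 and limma's adjusted p was 0.0655, the smallest that any member reached under any setting. With replicates 1 and 4 alone, which leaves out the pair of similar arrays, it was -0.29.

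On every array the log2 ratios of Tgfb1 and Tgfb2 had opposite signs. Tgfb1 was the higher of them by 2.93, 1.34 and 1.39 on replicates 1 to 3 and the lower by 0.66 on replicate 4 (difference -0.66). The mean difference of 1.25 was smaller than its SD of 1.5 over the 4 arrays, and it was not tested. The 250 bases before the annotated starts of Tgfb1 and Tgfb2 are shown, from RefSeq with the assembly GRCm38.p6. Their part in the ratios was not tested. The Tgfb1 window is chr7:25686752-25687001 on the plus strand and the Tgfb2 window is chr1:186705990-186706239 on the minus strand. These positions belong to another assembly than the probe positions. Capitals mark matches on both strands to 5 motifs. The core of the Smad-binding element is CAGAC, which reads GTCTG on the opposite strand. The E-box searched was CACGTG and the TATA box was TATAAA. The cyclic AMP response element was TGACGTCA. The GC box was GGGCGG, which reads CCGCCC on the opposite strand.
Tgfb1 promoter: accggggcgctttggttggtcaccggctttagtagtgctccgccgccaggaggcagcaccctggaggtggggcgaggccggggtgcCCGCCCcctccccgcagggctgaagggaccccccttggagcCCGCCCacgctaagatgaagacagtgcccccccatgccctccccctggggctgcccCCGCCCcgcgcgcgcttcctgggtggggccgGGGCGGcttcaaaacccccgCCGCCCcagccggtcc
Tgfb2 promoter: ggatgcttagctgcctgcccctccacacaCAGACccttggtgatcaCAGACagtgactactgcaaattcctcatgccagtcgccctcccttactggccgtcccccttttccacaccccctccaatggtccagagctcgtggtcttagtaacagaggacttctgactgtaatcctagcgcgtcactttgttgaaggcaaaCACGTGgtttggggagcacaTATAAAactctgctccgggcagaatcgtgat
In the Tgfb1 window 75.2% of bases were G or C and in the Tgfb2 window 53.6%, against a median of 52.4% over all 32851 windows. Tgfb1 held 5 GGGCGG matches, a motif found in 32.7% of windows, and no match to the other 4 motifs. Tgfb2 held no GGGCGG and instead 2 CAGAC matches, beginning 221 and 204 bases before the start, where 42.2% of windows hold at least 1. It also held CACGTG beginning 51 bases and TATAAA beginning 31 bases before the start, found in 6.02% and 12.4% of windows. No matches overlapped. A match is a run of letters and was not shown to be a bound site.

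Tgfb3 encodes the third ligand, which shares the integrin-binding motif of Tgfb1. Its probe A_51_P124748 lies on chromosome 12 at chr12:87397804-87397863 on the minus strand (mm9). Treated signals were 25895, 27535, 25553 and 27617, and untreated signals were 29602, 30383, 30092 and 26266. Treated cultures were slightly below untreated ones on replicates 1, 2 and 3 and slightly above on replicate 4, and the channels overlapped. With log2 ratios of -0.19, -0.14, -0.24 and 0.07, the mean was -0.12 ± 0.14 (SD, n = 4), with a 95% interval of -0.52 to 0.27 and an adjusted p of 0.689 in limma. Only 4.82% of tested probes had a smaller SD over the 4 arrays, and no other member had one. As a fold, the interval ran from 0.697 to 1.21.

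**Figure D3:**
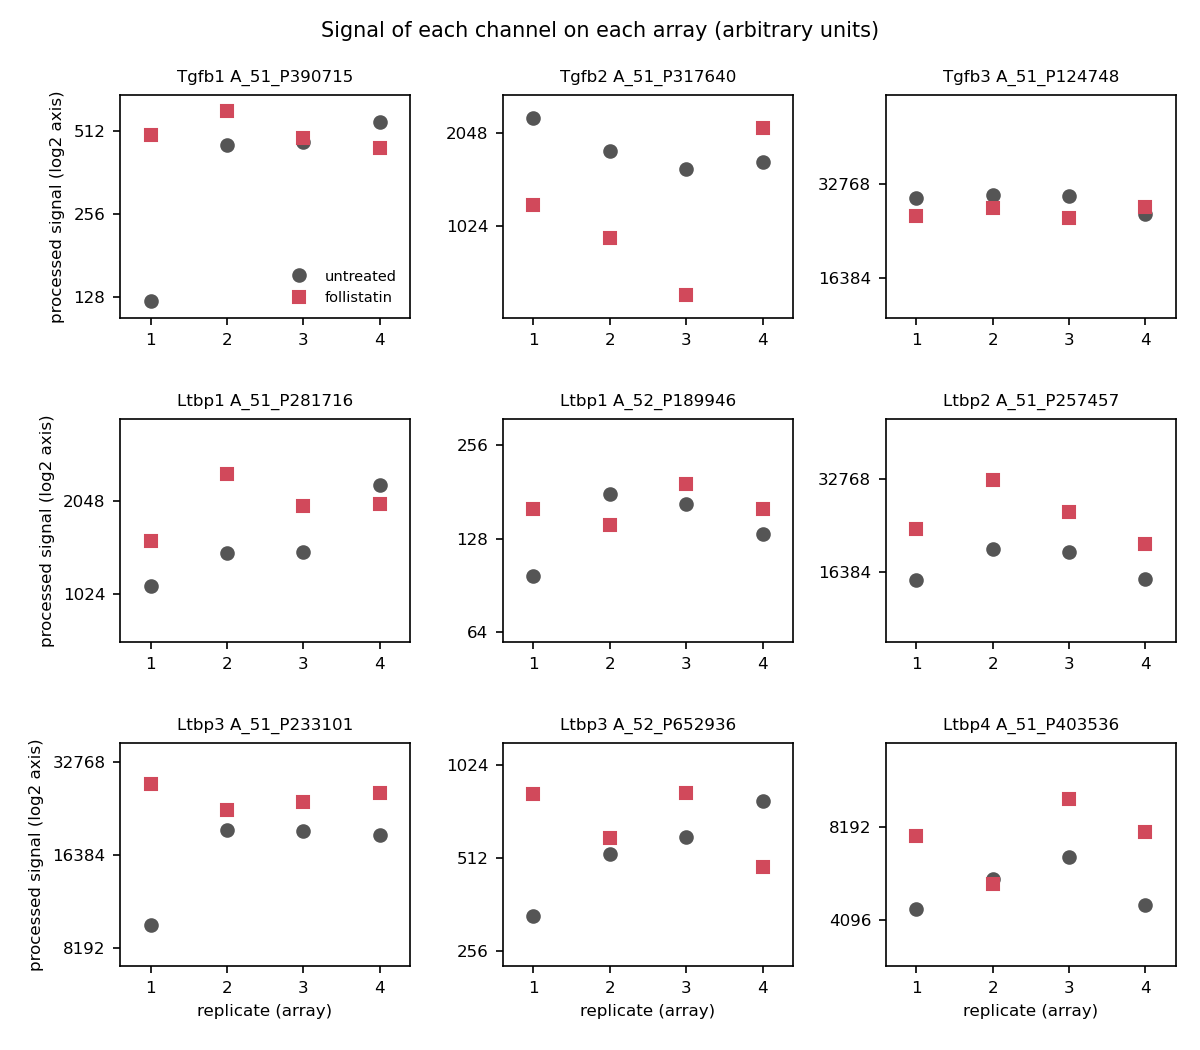
Processed signal in arbitrary units on a log2 axis (y axis) by replicate (x axis) for each member probe; red squares are treated and grey circles untreated cultures. Treated signals lie above untreated ones on every array for Ltbp2 and for Ltbp3 A_51_P233101, and the untreated signals of Tgfb1 and Ltbp3 A_51_P233101 are lowest on replicate 1.

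Ltbp2 is the binding protein that does not bind latent TGF-beta and is known as a fibrillin-associated part of microfibrils and elastic fibres. It had the smallest p among the members. The probe A_51_P257457 lies on chromosome 12 at chr12:86124173-86124232 on the minus strand (mm9), 1.27 Mb from the Tgfb3 probe. Treated signals were 22610, 32464, 25682 and 20145, and untreated signals were 15438, 19537, 19065 and 15587. Every treated culture exceeded every untreated one. The log2 ratios of 0.55, 0.73, 0.43 and 0.37 gave a mean of 0.52 ± 0.16 (SD, n = 4), a fold of 1.43 with a 95% interval of 1.09 to 1.89. The unadjusted p was 0.0185 and limma's adjusted p 0.169. The mean stayed between 0.45 and 0.571 under all 15 alternatives, leave-one-out fits included, with adjusted p from 0.123 to 0.877. Several of these, such as the filters, 1 probe per gene and the methods' t-test, left the ratios as they were and so could not move the mean. Only 7.06% of tested probes had a smaller SD. The 3 measured fibroblast markers were also above 0 in their median on all 4 arrays, while the summed signal of all 5 fibroblast markers was lower with follistatin on replicate 3.

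The 250 bases before the Ltbp2 start (chr12:84876492-84876741, minus strand, GRCm38.p6) are shown because Ltbp2 had the smallest p among the members. The capitals mark the same motifs as before.
Ltbp2 promoter: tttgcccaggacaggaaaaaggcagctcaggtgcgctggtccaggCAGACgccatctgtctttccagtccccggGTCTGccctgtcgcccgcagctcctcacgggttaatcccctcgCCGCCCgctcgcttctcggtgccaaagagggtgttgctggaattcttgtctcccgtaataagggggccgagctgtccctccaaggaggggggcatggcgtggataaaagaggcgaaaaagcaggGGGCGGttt
The window held 2 CAGAC matches, beginning 205 bases before the start on the plus strand and 176 bases before it on the minus strand, and 2 GGGCGG matches. In the other binding proteins, the Ltbp3 window held 1 CAGAC match. The 2 Ltbp1 windows held 1 and 2, and one of them held TGACGTCA, which is found in 1.55% of windows. None of the 3 Ltbp4 windows held CAGAC, and they held 3 to 7 GGGCGG matches. The Ltbp4 windows chr7:27333649-27333898 and chr7:27333664-27333913 share most of their bases, and some of their matches overlapped. The promoter table matched 6 of the 7 members, with 9 windows, and Tgfb3 had no entry.

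Ltbp1 binds the propeptides of all 3 ligands and is the founding member of the family. Its probe A_51_P281716 lies on chromosome 17 at chr17:75790058-75790191 on the plus strand (mm9), where its 60 bases cover 134 bases of the genome. Treated signals there were 1521, 2510, 1973 and 2014, and untreated signals were 1087, 1398, 1401 and 2306. Treated cultures were above untreated ones on replicates 1, 2 and 3 and below on replicate 4. Log2 ratios of 0.48, 0.84, 0.49 and -0.2 gave a mean of 0.41 ± 0.43 (SD, n = 4), a 95% interval of -0.11 to 0.92 and an adjusted p of 0.326 in limma. The mean was 0.61 without replicate 4, 0.26 without replicate 2 and 0.14 with replicates 1 and 4 alone.

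The other Ltbp1 probe, A_52_P189946 (chr17:75624653-75624712, plus strand, mm9), lies toward the start of the gene and gave a dimmer signal. Treated signals were 160, 142, 192 and 160, and untreated signals were 96.6, 178, 166 and 132. The channels overlapped, and replicate 2 was the array with the lower treated signal. Log2 ratios of 0.73, -0.32, 0.21 and 0.27 gave a mean of 0.22 ± 0.43 (SD, n = 4), a 95% interval of -0.29 to 0.73 and a limma adjusted p of 0.578. This mean was 0.02 with normexp and loess and 0.05 without replicate 1. The Ltbp1 probes differed by -0.24, 1.17, 0.29 and -0.47 on replicates 1 to 4 (mean 0.19, SD 0.73), so they did not rank the arrays alike. The outer probes span 165539 bases, and between them on the same strand lies the probe of the transcript AK048147 (chr17:75638429-75638488), whose log2 ratios were -0.43, -0.96, -2.06 and -1.12. Its mean was -1.14 (SE 0.28) with an adjusted p of 0.121 in limma, and it was singled out after its position and values were seen. Whether AK048147 belongs to Ltbp1 is not given in the sources used here.

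Ltbp3 binds latent TGF-beta and is known for its roles in the growing skeleton. Its probe A_51_P233101 lies on chromosome 19 at chr19:5758289-5758346 on the plus strand (mm9). Treated signals were 27968, 22944, 24308 and 26144, and untreated signals were 9759, 19751, 19599 and 19011. The treated cultures lay within a narrow band above all untreated ones, and the untreated culture of replicate 1 stood far below the other untreated cultures. The log2 ratios of 1.52, 0.22, 0.31 and 0.46 gave a mean of 0.63 ± 0.6 (SD, n = 4) with a 95% interval of 0.01 to 1.24. The unadjusted p was 0.0472 and limma's adjusted p was 0.237. Without replicate 1 the mean was 0.33, and with replicates 1 and 4 alone it was 0.99.

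The other Ltbp3 probe, A_52_P652936 (chr19:5751763-5751822, plus strand, mm9), lies nearer the start of the gene. Its 60 bases are shown because the Ltbp3 probes disagreed on replicate 4, and they read without a stop codon in 2 of the 3 forward frames.
Ltbp3 A_52_P652936: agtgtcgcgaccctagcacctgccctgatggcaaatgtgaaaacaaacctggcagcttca
Treated signals were 824, 593, 831 and 479, and untreated signals were 333, 529, 599 and 783. Treated cultures were above untreated ones on replicates 1, 2 and 3 and below on replicate 4. Log2 ratios of 1.31, 0.16, 0.47 and -0.71 gave a mean of 0.31 ± 0.83 (SD, n = 4), a 95% interval of -0.46 to 1.08 and an adjusted p of 0.603 in limma. Without replicate 1 this mean turned to -0.02, and with normexp and loess it was 0.15. The Ltbp3 probes differed by 0.21, 0.05 and -0.16 on replicates 1 to 3 and by 1.17 on replicate 4 (mean 0.32, SD 0.59). On the plus strand between them lies the probe of TC1598025 (chr19:5754724-5754783), which was well above background on no treated and 2 untreated arrays and was not tested.

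Ltbp4 binds the Tgfb1 propeptide weakly and is known in muscle as a modifier of muscular dystrophy. Its probe A_51_P403536 lies on chromosome 7 at chr7:28090175-28090234 on the minus strand (mm9), 1.6 Mb from the Tgfb1 probe. Treated signals were 7653, 5357, 10095 and 7901, and untreated signals were 4452, 5567, 6568 and 4591. Treated cultures were above untreated ones on replicates 1, 3 and 4 and nearly level with them on replicate 2, and the channels overlapped. Log2 ratios of 0.78, -0.06, 0.62 and 0.78 gave a mean of 0.53 ± 0.4 (SD, n = 4), a fold of 1.45 and a 95% interval of 0.03 to 1.03. The unadjusted p was 0.0393 and limma's adjusted p was 0.22. Ltbp4 and Tgfb1, on the same chromosome, did not share their pattern, since Tgfb1 was below 0 on replicate 4 and Ltbp4 was below 0 on replicate 2.

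Probes differed in which channel carried the spread over the arrays. The SD of the log2 signal was 0.99 untreated and 0.19 treated for Tgfb1, and 0.24 untreated and 0.74 treated for Tgfb2. The untreated signal was lowest on replicate 1 for 7 of the 9 member probes (77.8%), all but those of Tgfb2 and Tgfb3, against 36.9% of the tested probes measured on all arrays. Ltbp1 and Ltbp3 counted with both of their probes. For Ltbp2 (15438 against 15587) and Ltbp4 (4452 against 4591) replicate 1 was nearly level with replicate 4. The treated signal was lowest on replicate 1 for 1 of the 9 member probes (11.1%), against 23.8% of the tested probes measured on all arrays. The large positive ratios of Tgfb1 and of both Ltbp3 probes on replicate 1 thus stood beside a low untreated signal, with treated signals inside the range of the other arrays or just above it. On replicate 4 the signs of Tgfb1, Tgfb2, Tgfb3, Ltbp1 A_51_P281716 and Ltbp3 A_52_P652936 were opposite to those on replicates 1 to 3. Replicate 4 was the only array on its slide, so slide and replicate cannot be told apart for it.

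**Figure D4:**
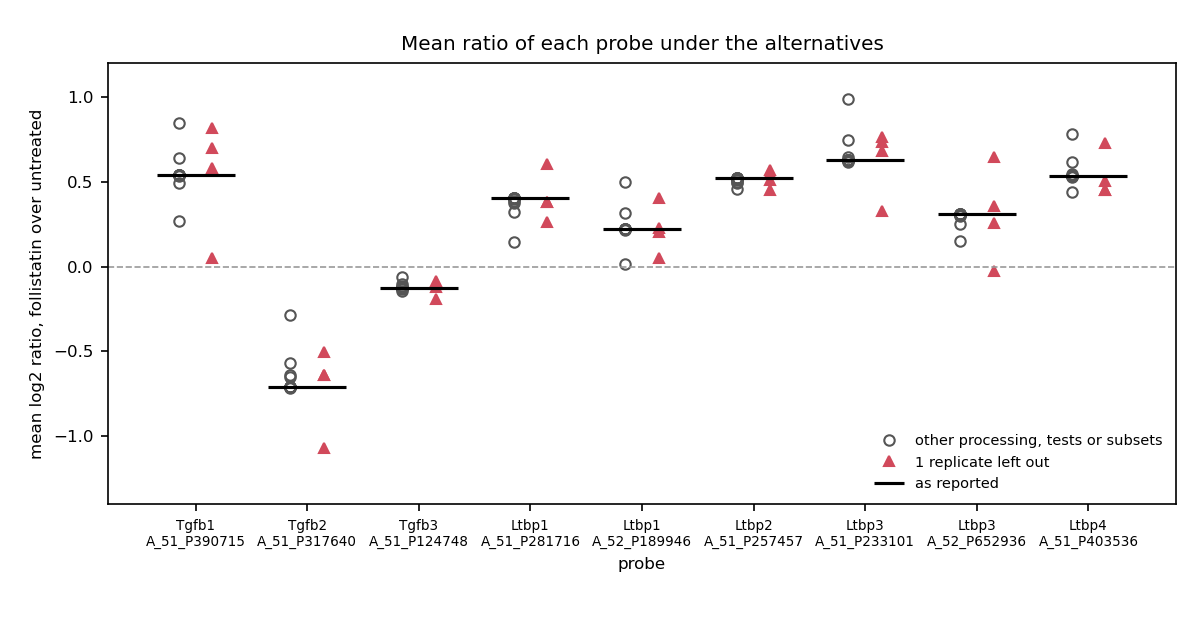
Mean log2 ratio of treated over untreated signal (y axis) for each member probe (x axis) as reported (black bars), under other processing, tests or subsets of arrays (open circles) and with 1 replicate left out (red triangles). Ltbp2 keeps between 0.45 and 0.571 while Tgfb1 runs from 0.0525 to 0.845 and Tgfb2 from -1.07 to -0.288.

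The genes whose 4 log2 ratios lay nearest to those of each member were found among 12975 named genes by Euclidean distance over the 4 arrays, with 1 probe per gene. For Tgfb1 these were Cercam (distance 0.37) and Capn1 (0.4), and Capn1 encodes calpain 1, a calcium-dependent protease. For Tgfb2 they were Isx (0.17) and Kif13b (0.22), and for Tgfb3 Apln (0.058), the apelin ligand, and Nubp1 (0.07). The nearest to Ltbp1 were Prorsd1 (0.17) and Zcchc24 (0.18), and to Ltbp2 Pign (0.11) and Mamdc2 (0.12). Ltbp3 had Ncdn (0.23) and Itga3 (0.26), an integrin subunit, and Ltbp4 had Iqgap3 (0.12) and Prpsap1 (0.17). Under normexp and loess these genes ranked between 2 and 342 for the same member, so which gene is nearest depended on the processing.

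The machinery around the ligands was described by lists of genes, with the brightest probe for each gene. No gene of these lists passed the test. Over the 17838 genes measured, 8.62% were higher and 10.8% lower at an unadjusted p under 0.05, with a median log2 ratio of -0.018. The list of latency and activation was mixed, and not all of its genes release the ligand. Of its 18 measured genes, 5 were higher and 0 lower at that level (27.8% and 0%), with a median of 0.18. Without replicate 1, with the slide as a random block and by the methods' t-test, 5423, 4210 and 5177 of 27017 probes were at that level. The count in the list was 3 in each of these settings. The 3 of smallest p were Mmp2, a matrix metalloprotease, at 0.98 (SE 0.28), Plau, the urokinase that generates plasmin, at 0.64 (SE 0.21), and Bmp1, a protease that cleaves Ltbp1, at 0.73 (SE 0.24). Their adjusted p in limma was 0.146, 0.175 and 0.178, and the other Bmp1 probe was at 0.17. All 3 had ratios above 0 on all 4 arrays, against 13.7% of tested probes, with replicate 1 the highest for each. Bmp1 was only at 0.03 on replicate 2. Genes picked for a small p tend to keep 1 sign over the arrays, here and in the lists below.

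Among the 13 measured microfibril and elastic fibre partners, on which the binding proteins are laid down, 2 were higher and 0 lower at an unadjusted p under 0.05, with a median of 0.02. Without replicate 4 the count was 4 and the median -0.02, and by the methods' t-test the count was also 4. Of all 27017 tested probes, 7656 and 5177 were at that level in these settings, against 5605 as reported. Efemp1, a fibulin of the extracellular matrix, had log2 ratios of 0.65, 0.82, 1.0 and 1.27 (mean 0.93, SE 0.18, limma adjusted p 0.103), above 0 on every array. Fn1, the fibronectin on which latent complexes are also laid down, was at 1.13 (SE 0.29, limma adjusted p 0.129), and its 2 other probes gave -0.38 and 1.17. Fbln2, another fibulin, was at 0.61 (SE 0.27, limma adjusted p 0.256). Fbn1, the fibrillin to which the binding proteins attach, was at 0.1 with an adjusted p of 0.788 in limma, and its other probe was at 0.74. Without replicate 3 the mean of Fbn1 was -0.0021.

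None of the 4 measured receptors and none of the 8 Smads and regulators reached an unadjusted p under 0.05, and their medians were 0.15 and -0.18. The type II receptor Tgfbr2 was at 0.26 (SE 0.17), the co-receptor Tgfbr3 at 0.28 (SE 0.2), the co-receptor Eng at -0.05 (SE 0.22) and the type I receptor Tgfbr1 at 0.04 (SE 0.2). The other Tgfbr2 probe was at 0.6 and the other Tgfbr1 probe at 0.29. Without replicate 2 or replicate 3, Eng was at 0.09 or 0.03 and the brightest Tgfbr1 probe at -0.06 or -0.05. The inhibitory Smad7, itself induced by TGF-beta, had log2 ratios of -0.5, -0.57, -0.69 and -0.01 (mean -0.44, SE 0.19, limma adjusted p 0.247), below 0 on all 4 arrays. The common partner Smad4 was at -0.38 (SE 0.17) and Smad3 at 0.36 (SE 0.19), with limma adjusted p of 0.256 and 0.321. With normexp and loess, 1 receptor and 4 of the Smads and regulators reached an unadjusted p under 0.05, and without replicate 4, 2 of the Smads and regulators did. In these settings 5159 and 7656 of all 27017 tested probes did, against 5605 as reported.

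Of 20 measured transcripts known to respond to TGF-beta, 3 were higher and 0 lower at an unadjusted p under 0.05, with a median of 0.04. Without replicate 4 and with replicates 1 and 4 alone, 7656 and 1810 of all 27017 tested probes were at that level, against 5605 as reported. The count in the list was 5 in both settings. The median was -0.07 without replicate 1, 0.21 without replicate 3 and 0.35 with replicates 1 and 4 alone. The 3 higher in the main fit were Fn1, described above, and the collagens Col1a2 at 0.72 (SE 0.22) and Col3a1 at 0.48 (SE 0.17). Limma adjusted p was 0.162 for Col1a2 and 0.192 for Col3a1. The other Col1a2 probe was at -0.4 and the other Col3a1 probes ran from -0.6 to 0.81. The median of the measured fibroblast markers, given above, lay above 0 on every array. The summed signal of all 5 fibroblast markers was lower with follistatin on replicate 3. The part of these markers in the values of the list was not tested.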

How the data were processed

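Two-colour arrays of 4 replicates were read by the authors as spot intensity with Agilent Feature Extraction: the submitters' processing notes name version 10.7.3.1, while the file of replicate 4 names 10.10.1.1 in its header. The processed intensity of each channel was deposited by the authors after background subtraction and dye normalization within the array, per the file headers. The log10 ratio that the authors deposited is Cy5 over Cy3 of these signals. The authors' deposited table of log2 values equals processed Cy3 over Cy5 (slope 1, column medians -0.16, 0.17, 0.13 and 0.11). Gene names and mm9 positions came from the replicate 4 file, matched by probe and by spot.

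Log2 ratios of processed signals were used without further centring. Control and outlier spots were left out, spots of a probe were averaged, and a probe was tested if well above background in 1 channel on at least 3 of 4 arrays. Each mean ratio was tested against 0 with limma 3.58.1 (statmod 1.5.0, R 4.3.3) and adjusted by Benjamini-Hochberg over 27017 probes at a threshold of 0.05. The steps were tested on simulated data with the spread of the real probes. A log2 change of 1 was called in 6% of probes made higher and in 2% of those made lower. For a change of 2 these shares were 48% and 66%. The number of arrays thus limits the precision, and all member means were smaller than 1 in size. No replicates had identical ratios.

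The 7 members and all gene lists were chosen with earlier results of these data known. Named genes are all members, the 3 of smallest p per list, 5 fixed pathway genes and the 2 nearest genes per member. One further gene of the list of TGF-beta-responsive transcripts is not reported here and was left out of that list. Alternatives were normexp (offset 50) with loess (span 0.3, 4 iterations), median centring, the authors' table, outlier spots kept, filters on dim probes, 1 probe per gene, the slide as a random block, each replicate left out, replicates 2 and 3 averaged, the methods' t-test and, chosen after seeing the data, replicates 1 and 4 alone.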

Additional observations from a re-analysis of the deposited data

Results flagged for a closer look

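The untreated signal of the Ltbp3 probe A_51_P233101 on replicate 1 was 9759, far from the other 3 untreated cultures (19011 to 19751): its gap to the nearest was 0.946 of the whole range on the log2 scale, over Dixon's critical value for 4 samples. The untreated signal of the Tgfb1 probe A_51_P390715 on replicate 1 was 124 against 453 to 548 on the other arrays, with a gap of 0.872 of the range. Of 27 groups of 4 values examined for the members (ratios and both channels), 2 stood apart in this way, and chance gives about 1 in 20. Both were untreated signals of the same array.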

How the results depend on the processing

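No member probe was called under any of the settings run, and 132 of 133 values of member probes under the alternatives kept their direction. The exception was Ltbp3 A_52_P652936, at -0.0238 without replicate 1 and up to 0.648 without replicate 4. Many of the 133 values were the main means again and say nothing about direction. The authors' table, outlier spots kept and the filters on dim probes gave the members the same means as the main fit. So did 1 probe per gene, where a member probe was kept, and the methods' t-test. The number of member probes at an unadjusted p under 0.05 ranged from 0 (without replicate 3) to 4, and with the slide as a random block (correlation 0.118) 1 remained, that of Ltbp2. With the slide block 4210 of all 27017 probes were at that level. Over all probes, the 2 calls became 0 with normexp and loess, under the stricter filter (both channels, every array), when replicates 2 and 3 were averaged and in the fit of replicates 1 and 4 alone, and 0 to 0 when 1 replicate was left out. The 5605 probes at an unadjusted p under 0.05 became 3679 with 1 probe per gene (fewer tests), 3073 after averaging replicates 2 and 3 and 1810 from replicates 1 and 4 alone (fewer arrays), and 2574 to 7656 with 1 replicate left out. The methods' t-test called 3 after adjustment and 5177 before.

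Among other named genes, Eng turned to 0.093 and 0.0268 without replicates 2 and 3, to 0.0599 with them averaged and to 0.275 with replicates 1 and 4 alone (lowest -0.261, without replicate 1). The brightest Tgfbr1 probe turned to -0.0635, -0.0479, -0.0557 and -0.245 in the same settings (highest 0.199, without replicate 4). Fbn1 turned to -0.00214 without replicate 3 and -0.149 with replicates 1 and 4 alone (highest 0.179, without replicate 4). The cause was not tested. The one dye orientation, 4 arrays of which 2 resemble each other, and 1 probe for 5 of the 7 genes limit all values.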
